A study of Mus musculus with 5 samples.

Results

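The tRNAs for charged amino acids were the tRNA names whose suffix gives lysine (Lys), histidine (His), aspartate (Asp) or glutamate (Glu) with an anticodon, or arginine (Arg) with an anticodon other than TCT. In the read tables of 5 libraries, 41 of the 228 tRNA names met this rule, out of 1038 names listed in all. The 41 names were 14 for Arg, 13 for Lys, 7 for Glu, 4 for Asp and 3 for His, and they covered 10 anticodons. A name such as chr3.trna745-GluCTC gives a chromosome, the number of a tRNA gene on it, the amino acid and the anticodon. The genome build behind these gene numbers is not given in the sources used here, so no coordinates are given, and the names lie on 16 chromosomes by their own text.

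The libraries came from C57BL/6J mice and were made by melRNA-seq, a method that sequences RNAs of medium length from end to end after selection by size. The labels of all 5 libraries give 115 to 255 nt, and the methods give this insert range for testis and no range for spermatogonia. Whole testis, listed by the study under postnatal day 7, gave 1 library without enzyme (untreated), 1 after 25 U of TAP for 1.5 h (spelled out in the labels as tobacco alkaline phosphatase) and 1 after 20 U of 5' polyphosphatase (5Pase) for 0.5 h. Spermatogonia, sorted from postnatal day 7 testes by the surface protein EpCAM, gave 2 replicate libraries after RppH. The 5' adaptor joins only a 5' monophosphate, TAP and RppH open caps and triphosphates to a monophosphate, and 5Pase opens triphosphates alone. The labels name no mutation or transgene in any group. The tables list repeats and structural RNAs and no messenger RNAs, so the identity of the sorted cells was not checked against marker genes.

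A tRNA gene is transcribed by RNA polymerase III into a precursor that starts with a 5' triphosphate. RNase P removes the 5' leader and leaves a 5' monophosphate on the mature tRNA, the 3' trailer is cut off, and CCA is added at the 3' end. Each tRNA is joined to its amino acid by an aminoacyl-tRNA synthetase and reads codons through its anticodon. Lys, Arg and His have basic side chains, and Asp and Glu acidic ones. In RefSeq (GRCm38.p6), 91 annotated tRNA genes have these anticodons, and each is 72 or 73 nt long. That is shorter than the smallest size in the labels, and the tables hold neither read lengths nor read positions, so whether a read came from a mature tRNA, a precursor or another RNA that matches the tRNA gene was not measured. Reads were compared between names without correction for length, and whether the RNAs read differed in length between names was not measured.

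The 5 libraries had between 2712840 and 6426081 sequenced reads, of which between 1067851 and 3166394 were listed under a name. Levels are given as RPM, the reads of a name for every 1000000 reads that its library held of 5.8S rRNA. 5.8S rRNA carries a 5' monophosphate already, but its own share was uneven, at 10.03% of the sequenced reads of the untreated library, 16.2% after TAP, 7.67% after 5Pase, and 19.2% and 9.90% in the spermatogonia replicates. Ratios are therefore given per 5.8S rRNA read and, where the direction depends on it, per listed read. The make-up of the listed reads also differed, with small nucleolar RNAs at 696740 of every 1000000 in untreated testis, 161497 after TAP and 760656 after 5Pase. A testis treatment had 1 library, so ratios between treatments have no replicate check and no test was made. Intervals beside ratios are 95% intervals from the read counts and those beside shares are Wilson 95% intervals, and both cover counting error only, since the reads carry no molecular identifiers. In a bulk tissue, fewer cells of a type and less RNA per cell cannot be told apart. By the methods, testis and spermatogonia differed in tissue, enzyme and library kit together, and they may have differed in the sizes selected. The parts of these in a ratio between testis and spermatogonia cannot be told apart.

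Reads were listed for 19 of the 41 names in untreated testis, for 24 after TAP, for 29 after 5Pase and for 36 and 39 in the 2 spermatogonia libraries. Of these names, 17 had reads in all 5 libraries and 12 had reads in a treated testis library but none in the untreated one. The 10 names read in spermatogonia alone had at most 9 reads in a library, so their absence from testis was not distinguishable from shallow sampling. For 11 names, no library held more than 3 reads.

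These tRNAs made up most tRNA reads of testis and few of those of spermatogonia. The untreated library held 12074 of their reads, which were 85.3% of its tRNA reads (84.8% to 85.9%). The share was 77.9% after TAP (77.3% to 78.5%) and 68.6% after 5Pase (67.9% to 69.3%). In spermatogonia it was 9.12% in replicate 1 and 9.71% in replicate 2, a mean of 9.42% ± 0.422 (SD, n = 2). All 3 testis libraries were thus far above both spermatogonia libraries. This contrast rested on Glu. Without Glu names, the group held 720 of 14147 tRNA reads in untreated testis, 1714 of 19840 after TAP and 1438 of 17984 after 5Pase. In spermatogonia it then held 3717 of 75255 and 4394 of 70795. With Glu, the share of all listed reads was 1.04% in untreated testis, 1.45% after TAP and 1.14% after 5Pase. In spermatogonia that share was 0.217% and 0.345%. The tRNAs for the other amino acids, with Arg TCT among them, had 4383 reads in the TAP library and 68394 and 63918 in the spermatogonia libraries, so their level per 5.8S rRNA read was 6.76 and 15.2 times that of TAP-treated testis. The charged amino acid tRNAs were at 0.192 and 0.463 times the TAP-treated testis in the same libraries.

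Glu supplied nearly all reads of the group in testis. It made up 94.0% of them in untreated testis (93.6% to 94.4%), 88.9% after TAP and 88.3% after 5Pase. In spermatogonia it made up 45.8% in replicate 1 and 36.1% in replicate 2, while Lys made up 29.5% and 26.4% and Arg 19.6% and 30.1%. The basic amino acids Lys and Arg were thus minor in testis, where neither passed 4.78%, and in spermatogonia neither was under 19.6%. His stayed between 0.282% and 1.66% in the 5 libraries, and Asp between 2.03% and 6.34%.

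**Figure D1:**
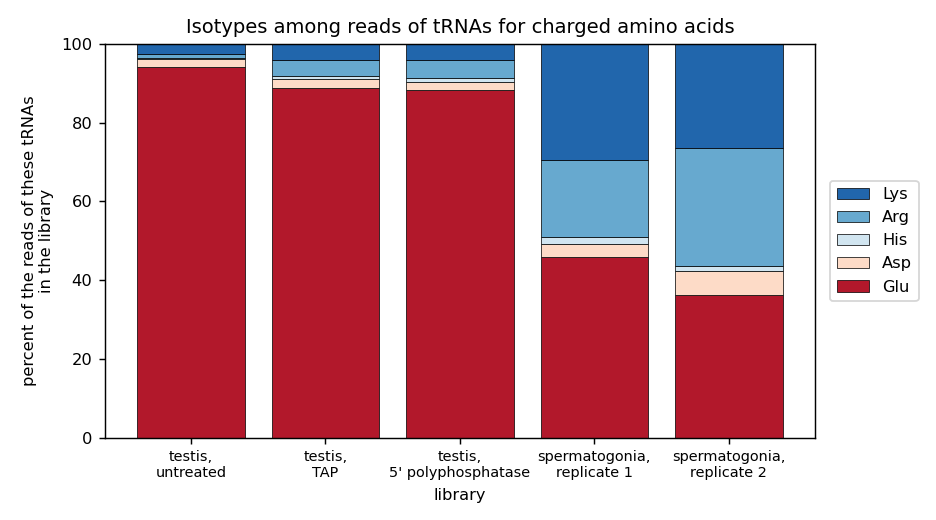
Stacked bars give the percent of the reads of tRNAs for charged amino acids that each isotype supplied in each of the 5 libraries, 1 library a bar. Glu fills 94.0% of the bar of untreated testis and 36.1% of the bar of spermatogonia replicate 2, where Lys and Arg fill most of the rest.

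A single name stood for most of this. The name chr3.trna745-GluCTC, for a tRNA that reads the codon GAG, had 9307 reads in untreated testis, 12441 after TAP, 9721 after 5Pase, and 2270 and 1771 in the spermatogonia replicates. It held between 99.6% and 100% of the reads of its anticodon in each library, and GluCTC as a whole was 77.1% of the reads of the charged amino acid tRNAs in untreated testis. Its level was 29441 RPM in untreated testis, 23210 RPM after TAP and 46736 RPM after 5Pase, against 1835 and 3435 RPM in spermatogonia. Both spermatogonia libraries were below every testis library. The ratio of TAP to untreated was 0.788 (0.767 to 0.810) per 5.8S rRNA read, but 1.45 for GluCTC per listed read, so its direction depended on the denominator. The ratio of 5Pase to untreated was 1.59 (1.54 to 1.63) per 5.8S rRNA read and 1.12 for GluCTC per listed read. Fragments of the GluCTC tRNA are well known from mouse sperm, but shorter than the size range of these libraries.

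The other Glu anticodon, GluTTC, reads GAA and behaved differently from GluCTC in testis. It had 2047 reads in untreated testis, 1302 after TAP and 1178 after 5Pase, and 864 and 706 in spermatogonia. Its ratio of TAP to untreated was 0.375 (0.350 to 0.402) per 5.8S rRNA read and 0.691 (0.645 to 0.741) per listed read, below 1 on both scales. Its share of the Glu reads, which uses neither denominator, was 18.03% in untreated testis (17.3% to 18.7%), 9.47% after TAP (8.996% to 9.97%) and 10.8% after 5Pase (10.2% to 11.4%). The share after either enzyme was thus lower than without enzyme, beyond counting error.

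The 3 GluTTC names differed in where they were read. The name chr9.trna961-GluTTC had 1882 reads in untreated testis, 1091 after TAP and 1007 after 5Pase, but 230 and 223 in spermatogonia. The name chr3.trna754-GluTTC had 17, 35 and 35 reads in the same testis libraries and 489 and 315 in spermatogonia. Per 5.8S rRNA read, chr9.trna961-GluTTC was at 0.0914 and 0.212 times the TAP-treated testis in the spermatogonia replicates, whereas chr3.trna754-GluTTC was at 6.05 (4.30 to 8.53) and 9.36 (6.60 to 13.3) times. The pair therefore stood on opposite sides of 1 in both replicates. Of the reads of these 2 names, chr9.trna961-GluTTC held 99.1% in untreated testis (98.6% to 99.4%), 96.9% after TAP and 96.6% after 5Pase, against 32.0% (28.7% to 35.5%) and 41.4% (37.4% to 45.7%) in spermatogonia. The third name, chr14.trna359-GluTTC, had between 136 and 176 reads in every library, but its level was not even. It was at 468, 328 and 654 RPM in untreated, TAP-treated and 5Pase-treated testis, and at 117 and 326 RPM in spermatogonia.

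The lysine tRNAs split by anticodon. LysTTT, which reads AAA and whose human counterpart primes reverse transcription of HIV, had 5 reads in untreated testis, 86 after TAP and 111 after 5Pase, and 1499 and 1551 in spermatogonia. LysCTT, which reads AAG, had 306, 532 and 378 reads in the testis libraries and 528 and 263 in spermatogonia. LysTTT was the rarer of the pair in testis and the more abundant in spermatogonia. Its share of the Lys reads was 1.61% in untreated testis (0.689% to 3.71%), 13.9% after TAP (11.4% to 16.9%) and 22.7% after 5Pase (19.2% to 26.6%). In the spermatogonia replicates it was 74.0% (72.0% to 75.8%) and 85.5% (83.8% to 87.0%). None of the 5 intervals overlapped.

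Per 5.8S rRNA read, LysTTT was 10.1 times as high after TAP as without enzyme (4.12 to 25.0) and 33.7 times as high after 5Pase (13.8 to 82.7). Per listed read these ratios were 18.7 and 23.8, so LysTTT was higher after both enzymes on either scale, with wide intervals from the 5 untreated reads. For LysCTT the ratios per 5.8S rRNA read were 1.03 (0.891 to 1.18) after TAP and 1.88 (1.61 to 2.18) after 5Pase. Per listed read they were 1.89 (1.64 to 2.18) and 1.33 (1.14 to 1.54), so the ratio after TAP was near 1 per 5.8S rRNA read and above 1 per listed read. In spermatogonia LysTTT was at 1212 and 3008 RPM, against 160 RPM in TAP-treated testis, which is 7.55 times (6.08 to 9.39) and 18.7 times (15.1 to 23.3), a mean ratio of 13.2 ± 7.92 (SD, n = 2). LysCTT was at 427 and 510 RPM, against 993 RPM, which is 0.430 (0.381 to 0.485) and 0.514 (0.443 to 0.596) times. The 2 anticodons of the same amino acid thus lay on opposite sides of TAP-treated testis in both replicates.

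Among single lysine names, chr19.trna639-LysTTT led LysTTT with 4, 68 and 78 reads in untreated, TAP-treated and 5Pase-treated testis and 1291 and 1006 in spermatogonia. The second, chr7.trna1276-LysTTT, had 1, 15 and 32 reads in testis and 191 and 526 in spermatogonia. For this name the second replicate was 6.61 times the first in RPM, the widest gap among the 12 names with at least 30 reads in both replicates. Its 154.4 RPM in replicate 1 was close to its 153.8 RPM in 5Pase-treated testis. LysCTT was carried by chr3.trna748-LysCTT and chr9.trna1035-LysCTT, which were read about equally often in testis, at 146 and 160 reads without enzyme and 243 and 288 after TAP. In spermatogonia they had 428 and 74 reads in replicate 1 and 189 and 45 in replicate 2. The share of chr9.trna1035-LysCTT in the reads of the pair was 52.3% in untreated testis (46.7% to 57.8%), 54.2% after TAP (50.0% to 58.4%) and 47.7% after 5Pase (42.7% to 52.8%), against 14.7% (11.9% to 18.1%) and 19.2% (14.7% to 24.8%) in spermatogonia. The intervals of the 3 testis libraries overlapped one another and lay above those of both spermatogonia libraries.

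**Figure D2:**
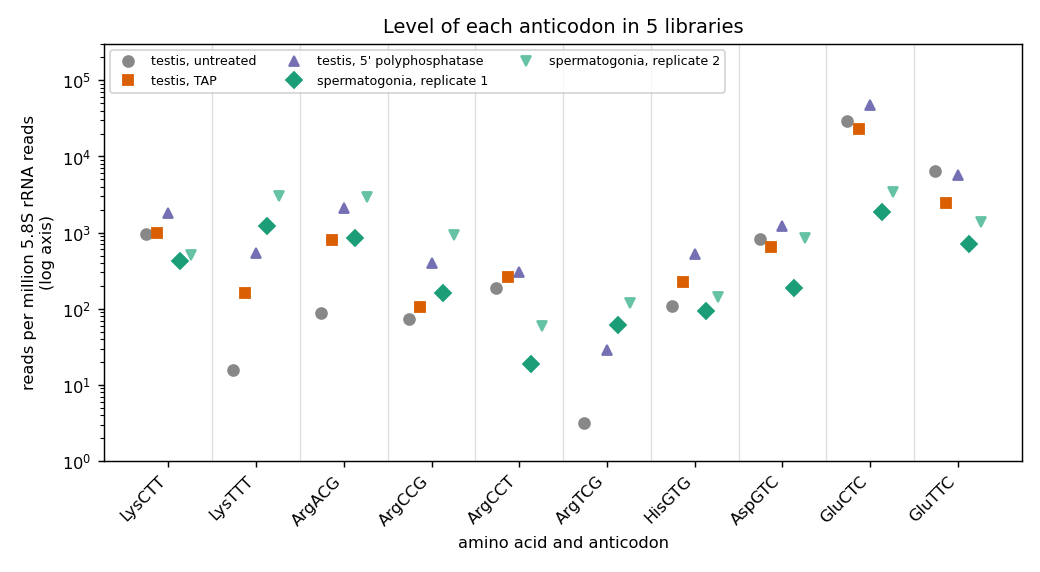
Points give the level of each of the 10 anticodons in each of the 5 libraries in RPM on a log axis, and no point is drawn for ArgTCG after TAP, where 0 reads were listed. LysTTT, ArgACG and ArgCCG are lowest in untreated testis, and GluCTC, GluTTC, LysCTT and ArgCCT are lower in both spermatogonia libraries than in any testis library.

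The arginine tRNAs were few in untreated testis, where their 112 reads were 0.928% of the reads of the charged amino acid tRNAs. ArgACG, whose first anticodon base is converted to inosine, had 28 reads in untreated testis, 431 after TAP and 439 after 5Pase, and 1049 and 1502 in spermatogonia. Untreated testis was the lowest library for this anticodon. Its ratio to untreated was 9.08 (6.19 to 13.3) after TAP and 23.8 (16.3 to 34.9) after 5Pase per 5.8S rRNA read, and 16.7 and 16.8 per listed read. The name chr14.trna209-ArgACG supplied 409 reads in each treated testis library and 22 in the untreated one. In spermatogonia ArgACG was at 1.05 (0.943 to 1.18) and 3.62 (3.25 to 4.03) times TAP-treated testis, and per listed read at 0.821 (0.734 to 0.918) and 1.87 (1.68 to 2.08) times. Per 5.8S rRNA read against 5Pase-treated testis the ratios were 0.402 and 1.38. The replicates did not give 1 direction on these scales, and none was read from them.

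ArgCCG, which reads CGG, had 23, 57 and 82 reads in the testis libraries and 197 and 475 in spermatogonia. Its ratio to untreated was 1.46 (0.901 to 2.37) after TAP, an interval that includes 1, and 5.42 (3.41 to 8.60) after 5Pase per 5.8S rRNA read. Per listed read these ratios were 2.69 (1.66 to 4.37) and 3.83 (2.41 to 6.08), and both intervals lay above 1. ArgTCG, which reads CGA, had 1, 0 and 6 reads in testis and 76 and 62 in spermatogonia, where it was at least 11.0-fold and 21.5-fold higher than a floor of 3 reads in the TAP library. The gap of ArgTCG to 5Pase-treated testis was smaller, at 28.8 RPM there from 6 reads and 61.4 and 120 RPM in spermatogonia. ArgCCG was at 1.50 (1.12 to 2.01) and 8.66 (6.58 to 11.4) times TAP-treated testis per 5.8S rRNA read in the replicates, and at 1.17 (0.868 to 1.57) and 4.46 (3.39 to 5.88) times per listed read. Against 5Pase-treated testis it was at 0.404 and 2.34 times per 5.8S rRNA read. ArgTCG was thus above TAP-treated testis in both replicates, whereas for ArgCCG this held on each scale for replicate 2, and for replicate 1 it depended on the scale and the testis library. The range of ArgCCG between replicates was wider than either counting interval.

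ArgCCT, which reads AGG, went the other way. It had 60 reads in untreated testis, 139 after TAP and 63 after 5Pase, and 23 and 31 in spermatogonia. The level in spermatogonia was 0.0717 (0.0461 to 0.111) and 0.232 (0.157 to 0.342) times that of TAP-treated testis. The leading name chr6.trna107-ArgCCT had 53, 116 and 45 reads in testis and 1 and 2 in spermatogonia, a ratio of 0.00374 (0.000522 to 0.0267) and 0.0179 (0.00443 to 0.0725). A further name of the same anticodon, chr11.trna1022-ArgCCT, had 0, 9 and 10 reads in testis and 8 and 22 in spermatogonia. Among the reads of this pair chr6.trna107-ArgCCT held 92.8% after TAP (86.9% to 96.2%). In spermatogonia it held 11.1% (1.99% to 43.5%) of 9 reads and 8.33% (2.32% to 25.8%) of 24 reads. The make-up of the pair thus differed between TAP-treated testis and spermatogonia. By level, chr11.trna1022-ArgCCT was at 16.8 RPM after TAP and 48.1 RPM after 5Pase. It was at 6.47 and 42.7 RPM in spermatogonia, so no direction was read for it.

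The arginine tRNA with anticodon TCT, which the rule leaves out, had 26, 241 and 648 reads in the testis libraries and 258 and 276 in spermatogonia. Its ratio of 37.9 (25.6 to 56.1) between 5Pase-treated and untreated testis was the highest of any Arg anticodon with at least 10 reads, with an interval that overlapped that of ArgACG.

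HisGTG, the tRNA that receives an extra guanosine at its 5' end after RNase P cleavage, had 34 reads in untreated testis, 119 after TAP, 108 after 5Pase, and 114 and 74 in spermatogonia. Its ratio to untreated was 2.06 (1.41 to 3.02) after TAP and 4.83 (3.28 to 7.10) after 5Pase per 5.8S rRNA read, and 3.81 and 3.41 per listed read. Against TAP-treated testis, spermatogonia were at 0.415 (0.321 to 0.537) and 0.646 (0.484 to 0.864). HisGTG was thus above untreated testis after both enzymes and below TAP-treated testis in both spermatogonia replicates. Nearly all of its testis reads were of chr4.trna1697-HisGTG, with 32, 115 and 104 reads.

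AspGTC kept a similar share of the group in the testis libraries, from 2.03% to 2.26%. It had 263, 350 and 251 reads in testis and 231 and 436 in spermatogonia, of which chr5.trna1316-AspGTC held from 95.4% to 98.9% by library. Its ratio of TAP to untreated was 0.785 (0.669 to 0.921) per 5.8S rRNA read and 1.45 (1.23 to 1.70) per listed read, so the direction turned with the denominator. Its ratio of 5Pase to untreated was 1.45 (1.22 to 1.72) and 1.02 (0.862 to 1.22) on the same scales. The replicates of spermatogonia lay on both sides of TAP-treated testis, at 0.286 (0.242 to 0.338) and 1.30 (1.13 to 1.49) per 5.8S rRNA read. Per listed read both were below it, at 0.223 (0.189 to 0.263) and 0.667 (0.580 to 0.768).

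Taken over all members, the ratio of TAP to untreated was 0.755 (0.737 to 0.773) and that of 5Pase to untreated 1.55 (1.51 to 1.59) per 5.8S rRNA read. Without the Glu names, an alternative chosen after seeing the data, these ratios were 1.40 (1.29 to 1.53) and 3.04 (2.78 to 3.32). On this scale the sum over the group therefore followed Glu, and the other 4 amino acids together lay on the other side of 1 after TAP. Per listed read, the ratio after TAP was 1.39 over all members, 1.32 for Glu and 2.59 without Glu names, all above 1. Per 5.8S rRNA read, the tRNAs for other amino acids were at 1.25 (1.18 to 1.31) after TAP and 4.14 (3.94 to 4.35) after 5Pase. 5S rRNA, an RNA polymerase III transcript that keeps its 5' triphosphate, was at 4.14 (3.99 to 4.30) and 7.18 (6.91 to 7.46). For this rRNA, the study reports a larger rise after TAP on the same scale. The cause of that gap was not tested. The methods call the results of both treated testis libraries very similar, without naming a measure. Per 5.8S rRNA read, the ratio of TAP to 5Pase was 0.577 for 5S rRNA and 0.486 over all members. Per listed read it was 1.51 and 1.27, so its direction depended on the denominator. Other comparison RNAs differed from 5S rRNA. In untreated, TAP-treated and 5Pase-treated testis, 7SK RNA was at 1778, 6112 and 4063 RPM and U6 snRNA at 123, 157 and 438 RPM. LysTTT and ArgACG had larger ratios than 5S rRNA in the treated testis libraries, and GluCTC, GluTTC, LysCTT and AspGTC smaller ones, with intervals that did not overlap that of 5S rRNA except for LysTTT after TAP.

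Names were counted as higher or lower where the ratio was at least 2-fold, among names with at least 10 reads in the compared libraries together, a name at 0 in 1 library counting as past the fold. A name that reached the minimum through 1 side alone was nearly bound to be counted toward that side, so its count is a description only. After TAP, 4 of 16 member names tested were at least 2-fold higher per 5.8S rRNA read, when 29.1% of all 323 names tested were. These were chr14.trna209-ArgACG, chr19.trna639-LysTTT, chr7.trna1276-LysTTT and chr4.trna1697-HisGTG. At least 2-fold lower were 2 of the 16, chr9.trna961-GluTTC and chr10.trna856-AspGTC, against 45.5% of all names. The member share of higher names, 25%, was thus close to that of all names, and that of lower names, 12.5%, was under it. Per listed read, 9 of 16 were higher, against 37.8% of all names, and 0 were lower, against 32.5%. The median ratio over the 16 names was 1.197 per 5.8S rRNA read, beside 0.590 over all names and 2.09 over the other tRNAs.

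After 5Pase, 9 of 17 member names tested were at least 2-fold higher per 5.8S rRNA read, when 41.1% of all 314 names tested were, and 0 were lower, against 3.18%. The 9 names were the 4 that were higher after TAP together with chr9.trna783-ArgACG, chr11.trna945-ArgCCG, chr11.trna1022-ArgCCT, chr3.trna754-GluTTC and chr3.trna748-LysCTT. By amino acid they were 4 of Arg, 3 of Lys, 1 of His and 1 of Glu. The name chr11.trna1022-ArgCCT had 0 untreated reads and reached the minimum through its 10 reads after 5Pase. Per listed read, 8 of 17 were higher, against 30.3% of all names, and 1 was lower, against 6.05%. Both member shares of higher names were somewhat above those of all names and below those of the other tRNAs, of which 79.7% were higher per 5.8S rRNA read and 70.9% per listed read. The median ratio per 5.8S rRNA read was 2.03 over the 17 names, 1.76 over all names and 10.3 over the other tRNAs.

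**Figure D3:**
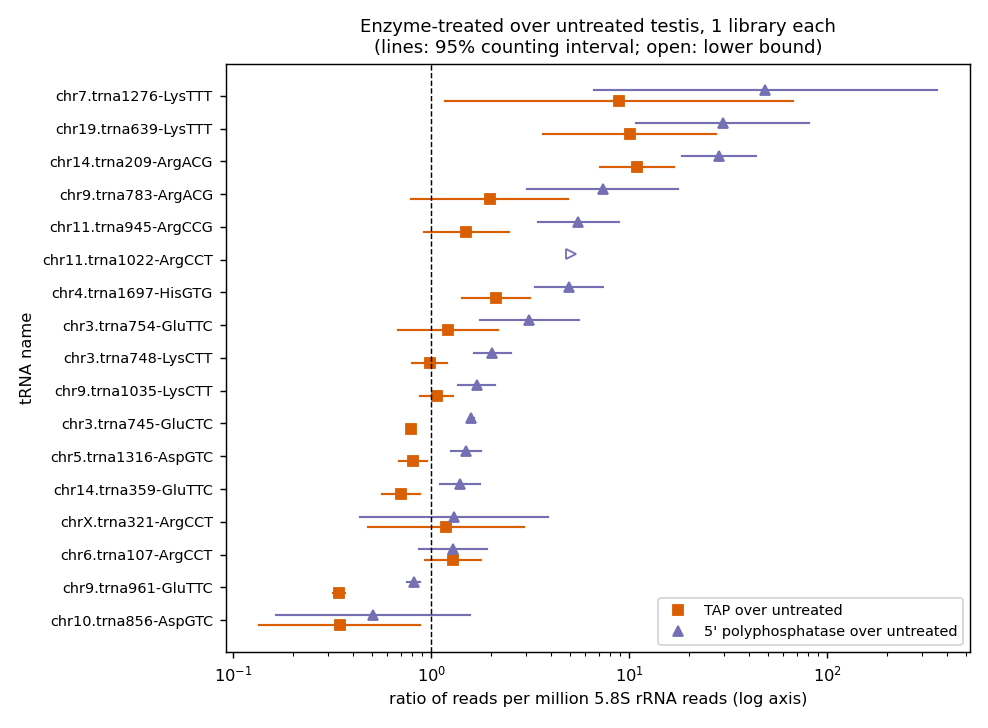
Points give, for each member name with at least 10 reads in the compared libraries together, the ratio of its RPM after TAP or 5Pase to that in untreated testis on a log axis, with 1 library each. Lines are 95% counting intervals, and the open triangle is a lower bound against a floor of 3 reads. The LysTTT names and chr14.trna209-ArgACG lie far right of the dashed line at 1 after both enzymes, and chr9.trna961-GluTTC lies left of it after both.

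Between spermatogonia and TAP-treated testis, a name was counted only if both replicates passed the fold. Of 24 member names tested, 9 were at least 2-fold higher per 5.8S rRNA read, when 57.5% of all 473 names tested were, and 7 were at least 2-fold lower, against 16.1%. Per listed read the counts were again 9 and 7, against 49.7% and 20.3% of all names. Among the other tRNAs, 70.2% of 124 names were higher and 6.45% were lower per 5.8S rRNA read. Higher names were thus a smaller share of the members than of all names, and lower names a larger one, with no test made of either difference. The median ratio per 5.8S rRNA read was 1.93 over the 24 members, 3.94 over all names and 10.2 over the other tRNAs, with names at 0 in testis placed above the median.

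The 9 higher names were 3 of LysTTT, 3 of ArgTCG and 1 each of LysCTT, ArgCCG and GluTTC. Of these, chr19.trna639-LysTTT, chr7.trna1276-LysTTT and chr3.trna754-GluTTC had at least 15 reads in the TAP library, and the other 6 had 1 read or 0 reads there. For chr7.trna1276-LysTTT, replicate 1 was not higher by the fold against 5Pase-treated testis, at 154.4 and 153.8 RPM. The calls for those 6 rest on few reads, and for chr7.trna387-ArgTCG, with 16 and 5 reads in spermatogonia, the lower bound against a floor of 3 reads was under 2 in replicate 2. The 7 lower names were chr3.trna745-GluCTC, chr9.trna961-GluTTC, chr9.trna1035-LysCTT, chr6.trna107-ArgCCT, chrX.trna321-ArgCCT, chr4.trna1697-HisGTG and chr10.trna856-AspGTC. All 5 amino acids had a lower name, while His and Asp had no higher one. The only lower Asp name, chr10.trna856-AspGTC, had 7 reads in the TAP library and 7 and 3 in spermatogonia, so its call also rests on few reads. The leading Asp name, chr5.trna1316-AspGTC, was not counted as lower, at 640 RPM after TAP and 180 and 836 RPM in spermatogonia.

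**Figure D4:**
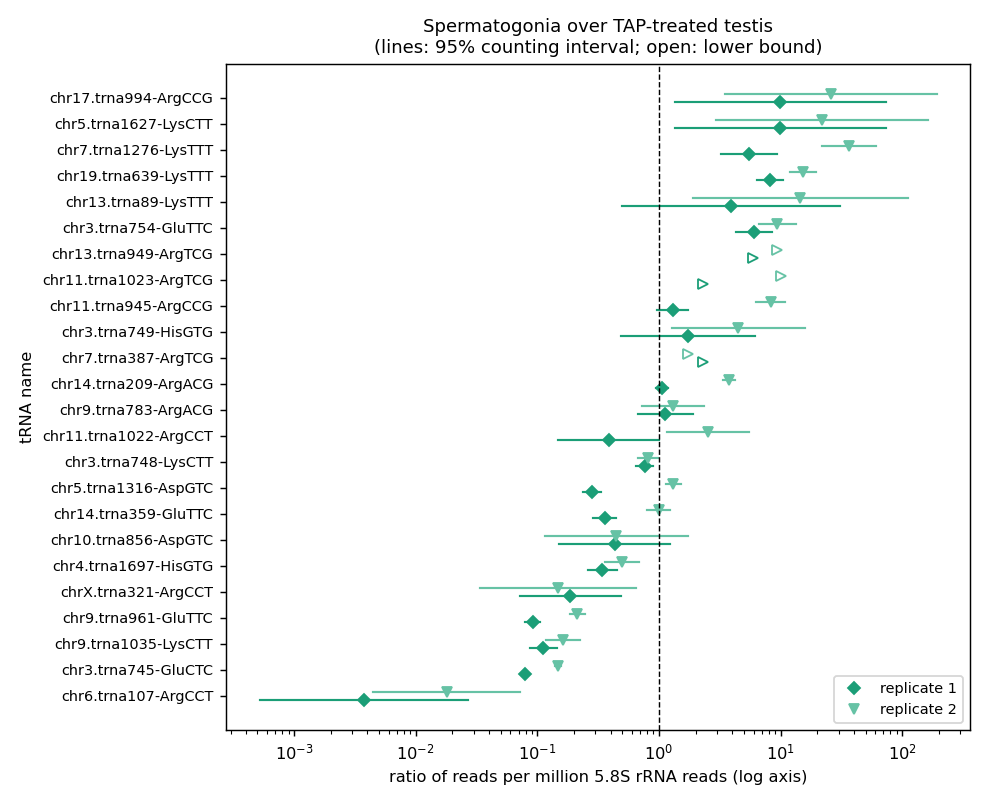
Points give, for each member name with at least 10 reads in the TAP library plus the mean of the spermatogonia replicates, the ratio of its RPM in each spermatogonia replicate to that in TAP-treated testis on a log axis. Lines are 95% counting intervals and open triangles are lower bounds against a floor of 3 reads. Names of 1 anticodon lie on both sides of the dashed line at 1, as chr3.trna754-GluTTC and chr9.trna961-GluTTC do.

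The spermatogonia replicates differed by more than counting error. Over the 26 member names with at least 10 reads in the replicates together, a chi-square statistic of their counts was 29.0 times its 25 degrees of freedom. Across these names, which share 2 libraries and are not independent replicates, the levels as log10(RPM + 1) had a Pearson's r of 0.951 and a Spearman's rho of 0.934. The second replicate was higher in RPM for each of the 12 names with at least 30 reads in both, by from 1.06 times for chr3.trna748-LysCTT to 6.61 times for chr7.trna1276-LysTTT. Replicate 2 also held 9.90% of its reads in 5.8S rRNA against 19.2% in replicate 1, which moves every RPM the same way. Per listed read the order of the replicates differed between names, with chr3.trna748-LysCTT at 0.594 and 0.417 times TAP-treated testis in replicates 1 and 2 and chr7.trna1276-LysTTT at 4.29 and 18.8 times.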

How the data were processed

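The authors deposited raw counts of the reads assigned to each repeat or structural RNA, 1 table a library. Per the study's methods, reads were taken on a MiSeq in 300 bp single-end mode, trimmed with Cutadapt, discarded if they held no adaptor and assigned by RepeatMasker. Versions and the repeat library are not given in the sources used here. Near-identical tRNA gene copies cannot be told apart by such an assignment, so reads of a name may come from several genes. Lines of a name without a count (1 each in the untreated and 5Pase tables) were skipped, and B2 names were spelled alike. Spermatogonia RNA was 500 ng in the methods and 600 ng in the labels. The protocol text of the labels for spermatogonia repeats the testis one, with TAP and the testis kit. The sample titles and the methods give RppH, and the methods another kit.

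From these counts, RPM, shares and ratios were computed with Python 3.11.15, numpy 2.4.6 and scipy 1.17.1, and drawn with matplotlib 3.10.9. Ratio intervals used the log ratio with a variance equal to the sum of reciprocal counts. Between spermatogonia and testis, names of snRNAs, scRNAs and large rRNAs, which are written differently in the tables, were left out of the background. In simulated counts, with the TAP library copied for both sides and counting error alone, 95.2% of intervals held the 4-fold change of 200 names. That checks the interval formula only, since neither the low untreated counts nor a spread between libraries was simulated. Named were all anticodons, the 3 leading names of each amino acid, the 3 highest and lowest ratios of each comparison among names with at least 30 reads in each library, and, after their values were seen, the other names counted as changed and the partners of named ones. The members and lists were chosen with earlier results of these data known. Alternatives changed the denominator, the minimum of reads, the call rule, the membership of Arg TCT and of the leading name, the testis library and the replicates used.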

Additional observations from a re-analysis of the deposited data

How the results depend on the processing

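Several sums turned with the denominator or the members. The ratio of TAP to untreated over all members, 0.755 per 5.8S rRNA read, was 1.39 per listed read, 1.22 per sequenced read, 0.913 per tRNA read, 0.643 without chr3.trna745-GluCTC and 1.40 without Glu names. The ratio of 5Pase to untreated, 1.55, was 1.10 per listed read, 1.19 per sequenced read, 0.804 per tRNA read, 1.63 with Arg TCT, 1.44 without chr3.trna745-GluCTC and 3.04 without Glu names. The mean ratio of spermatogonia to TAP-treated testis, 0.327, was 0.194 per listed read, 0.121 per tRNA read, 0.159 against 5Pase-treated testis, 1.21 without chr3.trna745-GluCTC and 1.80 without Glu names. Leaving out 1 replicate gave 0.192 to 0.463. By amino acid, the ratio of TAP to untreated turned for Glu (1.32 per listed and 1.15 per sequenced read) and Asp (1.45 and 1.27), that of 5Pase for Glu (0.755) and Asp (0.751) per tRNA read, and that of spermatogonia for Lys (0.844 per tRNA read), Arg (0.745 per tRNA read, 0.899 against 5Pase-treated testis and 0.930 without replicate 2) and Asp (1.30 without replicate 1).

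Names at least 2-fold higher after TAP were 9 per listed read and 11 with no minimum of reads, in place of 4. After 5Pase they were 20 with no minimum, in place of 9. In spermatogonia they were 4 at 30 reads, 17 with no minimum, 5 by the counting interval and 5 against 5Pase-treated testis, in place of 9, and 10 to 12 without 1 replicate. With Arg TCT, the share of tRNA reads was 79.1% after TAP and 72.2% after 5Pase. Beyond the denominators themselves and the removal of names, the causes were not tested. No paired analysis was possible because each testis treatment has 1 library, so that groups share fewer than 2 replicate numbers, and no test was made between groups. The 16 of 41 names with at most 10 reads in every library limit what single names show.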
